A study of Mus musculus with 6 samples.

Results

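The genes described here are 10 members of the Notch signaling pathway in bone marrow-derived macrophages (BMMs): the Fringe glycosyltransferases Mfng, Lfng and Rfng, the receptors Notch1, Notch2 and Notch4, the ligand Jag1, the nuclear factors Rbpj and Maml1, and the target gene Hes1. They are 10 of 47729 genes counted by RNA-seq, and all 10 were among the 17406 genes abundant enough to be compared. The set was drawn up as a list of pathway genes because Mfng differed strongly between the genotypes. The genotype differences of these 10 genes are therefore given as a description, without a test of the set. Whether a gene passed the threshold of the comparison of all genes is stated only as part of that description. Aif1-/- BMMs (3 libraries) and WT BMMs (3 libraries) came from the femur and tibia of male mice aged 8 weeks on the C57BL/6J background, the knockout being germline and backcrossed. Cells of both genotypes were differentiated to macrophages, immortalized with the SV40 large T antigen and kept in CSF-1, the macrophage growth factor, with no further treatment. The libraries of a genotype came from independent animals, but whether each library stands for a separately immortalized line is not stated, so the errors below cover these libraries only.

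Notch receptors are single-pass membrane proteins that are activated by ligands of the Jagged and Delta-like families on a neighboring cell. Ligand binding exposes the receptor to ADAM10 and then to the γ-secretase complex, which frees the intracellular domain to enter the nucleus, where it joins the DNA-binding protein RBPJ and a Mastermind-like coactivator to switch on targets such as the Hes and Hey repressors. In the Golgi, Fringe enzymes lengthen O-linked fucose on the EGF-like repeats of the receptor and thereby change which ligands activate it, and in macrophages the pathway is known for its part in inflammatory gene expression.

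The libraries held 17707986 to 26486393 counts assigned to genes in Aif1-/- BMMs and 23253869 to 29314253 in WT BMMs. WT library 3 stood apart, with 25.5% of its tallied reads outside annotated genes, against 33.6% to 35.7% in Aif1-/- BMMs and 32.4% and 40.4% in the other WT libraries. Fold changes of the 10 genes that move without WT library 3 are therefore given with and without it. Aif1, the targeted gene, had 4, 4 and 1 counts in Aif1-/- BMMs, against 220, 157 and 239 in WT BMMs, and the groups did not overlap. All 10 macrophage markers examined were measured, and their summed level was 5927 to 5978 CPM (read counts scaled to the size of the library) in Aif1-/- BMMs and 4609 to 4806 in WT BMMs, with 6 of them higher and 1 lower in Aif1-/- BMMs. Markers of T cells, B cells, granulocytes, dendritic cells and fibroblasts each summed to at most 4.44 CPM in any library, and Cd3e, Cd3g, Cd79b, Elane, Mpo, S100a9, Ly6g, Dcn and Lum were at 0 in every library. The 5 megakaryocyte markers summed to 76.6 to 79.6 CPM in Aif1-/- BMMs and 39.4 to 41.7 in WT BMMs, mostly from Pf4. Pf4 and Ppbp were higher, but Gp1ba and Itga2b were neither higher nor lower. Gp9 had 2 counts in Aif1-/- library 1 and none elsewhere. The part of these markers in the values below was not tested.

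Across the 10 genes, Mfng and Hes1 were far higher in Aif1-/- BMMs, Lfng and Jag1 were moderately higher, and Rfng was lower, while Notch1, Notch2, Rbpj and Maml1 lay close to WT and Notch4 was sparsely counted in both genotypes. Of the 10, 5 passed an adjusted p of 0.05 in the comparison of all genes, where 18.6% of genes passed; 4 were higher, against 8.04% of all genes, and 1 was lower, against 10.5%. That count was 3 without WT library 1, 6 without WT library 3, and 2, 3 and 2 without Aif1-/- library 1, 2 and 3. The median log2 fold change of the 10 was 0.18, and that of all genes compared was -0.0035. Normalized counts of the genotypes did not overlap for 6 of the 10, which holds for 35.7% of all genes. Because the list was proposed from this contrast, nothing is read from these counts. Normalized counts here are counts scaled to a common effective library size, and log2 fold changes are Aif1-/- minus WT.

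**Figure D1:**
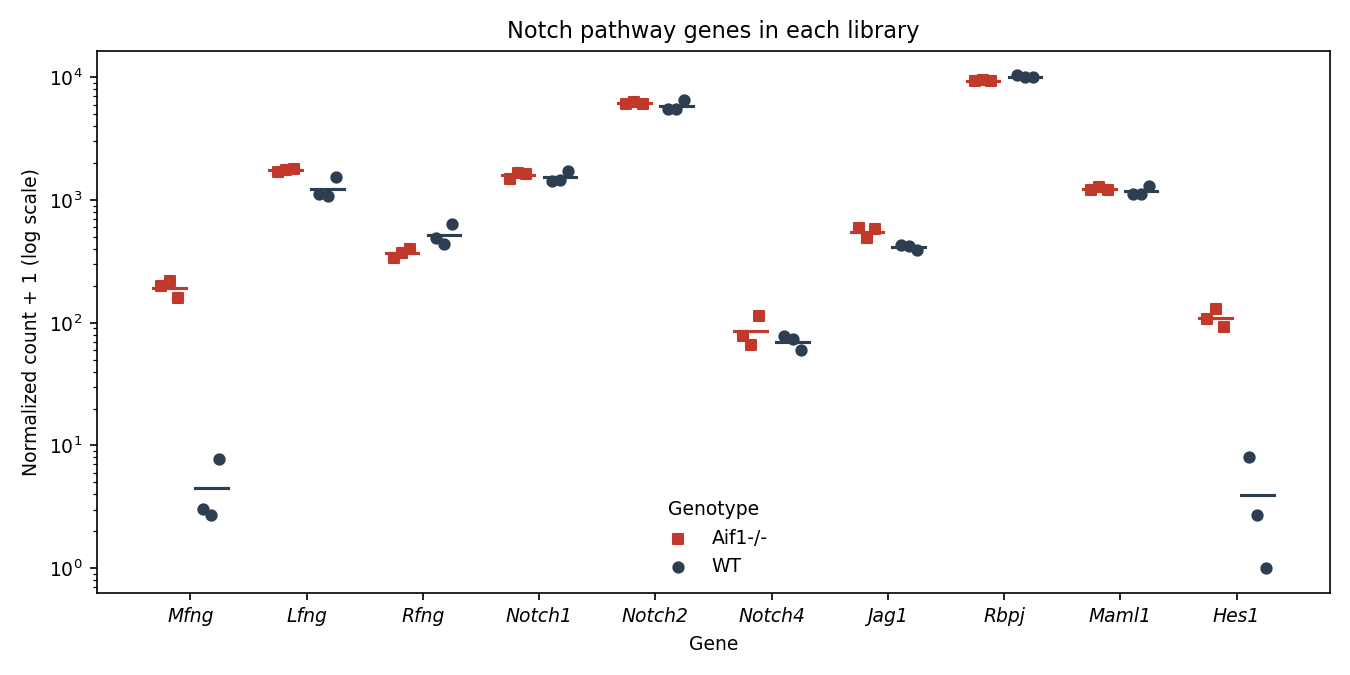
Normalized count plus 1 (log axis) of each of the 10 Notch pathway genes in every library, with Aif1-/- libraries as red squares left of WT libraries as dark circles, and bars at the group means. Mfng reaches 158 to 218 in Aif1-/- BMMs and 1.70 to 6.76 in WT BMMs, and Hes1 reaches 92.2 to 128 and 0 to 7.04, while the receptor groups lie side by side.

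Among the Fringe enzymes, Mfng showed the largest difference. Mfng (Manic fringe, ENSMUSG00000018169, GRCm38 chromosome 15, 78755882 to 78773475, minus strand) had 226, 164 and 120 reads in the 3 Aif1-/- libraries, against 2, 2 and 8 in the WT libraries. Scaled for library size these were 199.6, 218 and 158 normalized counts in Aif1-/- BMMs, against 2.01, 1.70 and 6.76 in WT BMMs. Every Aif1-/- library was thus far above every WT library, and WT library 3 held 8 of the 12 WT reads. The log2 fold change was 5.70 (SE 0.37, 95% interval 4.88 to 6.52), 52.1-fold on the linear scale, which placed Mfng at rank 23 from the top among all genes compared. Without WT library 3 it was 6.61. A log2 fold change of 5 or more was seen for 34 genes, 0.195% of those compared. In bulk RNA, more cells with the transcript and more transcript per cell cannot be told apart.

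Lfng (Lunatic fringe, ENSMUSG00000029570, chromosome 5, 140607320 to 140615545, plus strand), the most abundant Fringe in both genotypes, had 1689.6, 1751 and 1791 normalized counts in Aif1-/- BMMs, against 1113, 1072 and 1537 in WT BMMs. All 3 Aif1-/- libraries were higher, with WT library 3 the closest to them. Its log2 fold change was 0.49 (SE 0.12, interval 0.21 to 0.77), and 0.68 without WT library 3. Lfng no longer passed the threshold without WT library 1 or without any of the Aif1-/- libraries. Rfng (Radical fringe, ENSMUSG00000025158, chromosome 11, 120780746 to 120784207, minus strand) ran the other way, with 339, 366 and 396 normalized counts in Aif1-/- BMMs, against 494, 440.4 and 632 in WT BMMs. The groups did not overlap, the log2 fold change was -0.51 (SE 0.14, interval -0.83 to -0.19), and it was -0.34 without WT library 3. Rfng also lost its side of the threshold without WT library 1 or any Aif1-/- library.

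To weigh the Fringe enzymes against each other, CPM of gene reads were divided by the summed exon length of each gene in kilobases. On this scale the 3 enzymes together reached 38.8 ± 1.06 in Aif1-/- BMMs and 29.8 ± 4.62 in WT BMMs (SD, n = 3 each). Mfng supplied 7.98%, 8.33% and 5.99% of that sum in the Aif1-/- libraries, against 0.110%, 0.0987% and 0.274% in the WT libraries. The share of Rfng was 16.2% ± 0.856 in Aif1-/- BMMs and 29.7% ± 0.943 in WT BMMs, and that of Lfng was 76.4% ± 0.597 and 70.1% ± 0.901. So Lfng made up most of the Fringe transcript in both genotypes, and Mfng, nearly undetected in WT BMMs, was the smallest share in Aif1-/- BMMs as well. With the longest transcript in place of the summed exons, the Mfng share in Aif1-/- BMMs was 10.2%.

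**Figure D2:**
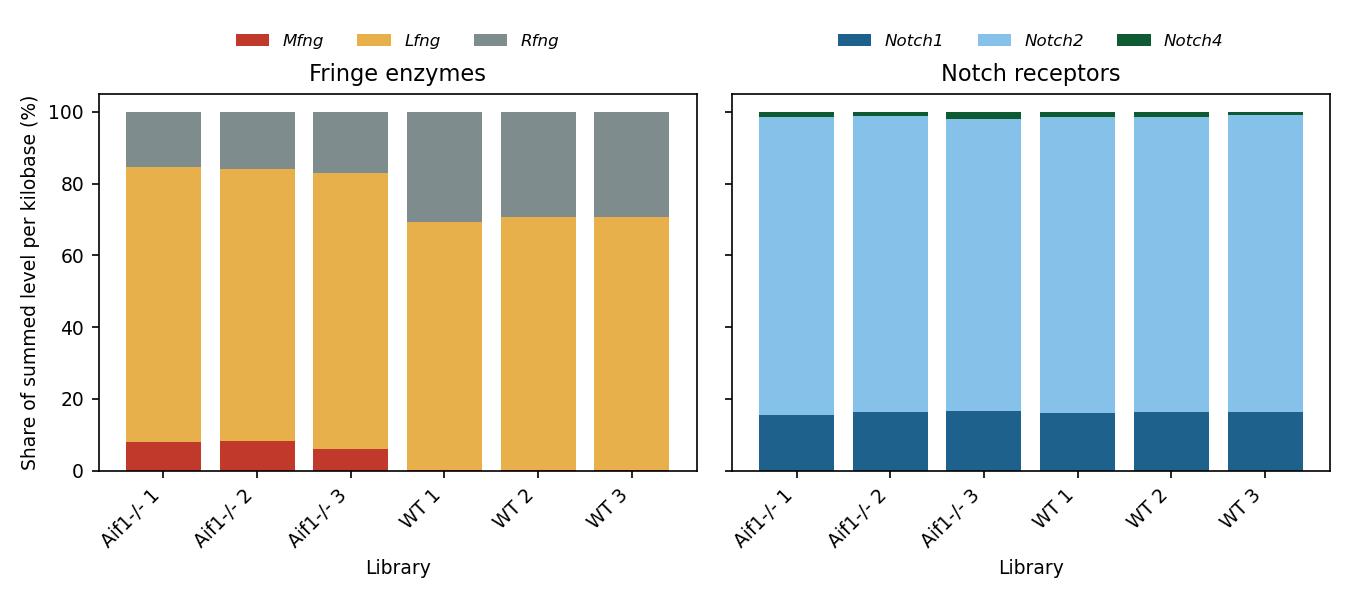
Percent of the summed level per kilobase contributed by each Fringe enzyme (left) and each Notch receptor (right) in every library, Aif1-/- libraries left of WT libraries. Mfng forms 5.99% to 8.33% of the Fringe sum in Aif1-/- BMMs and at most 0.274% in WT BMMs, whereas the receptor shares look alike, with Notch2 at 81.4% to 83.1% in Aif1-/- BMMs and 82.2% to 82.6% in WT BMMs.

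The receptors that Fringe enzymes act on lay close to WT. Notch1 (ENSMUSG00000026923, chromosome 2, 26457903 to 26516663, minus strand) had 1489, 1655 and 1626 normalized counts in Aif1-/- BMMs, against 1427, 1460.2 and 1728 in WT BMMs. The ranges overlapped and the log2 fold change was 0.05 (SE 0.09, interval -0.15 to 0.24), and 0.14 without WT library 3. Notch2 (ENSMUSG00000027878, chromosome 3, 98013527 to 98150361, plus strand), the most abundant receptor, had 6073, 6257 and 6065 in Aif1-/- BMMs, against 5540.1, 5539 and 6574 in WT BMMs. Here WT library 3 was the highest of all 6, and the log2 fold change was 0.06 (SE 0.08, interval -0.12 to 0.23) with it and 0.15 without it, when Notch2 passed the threshold. Notch4 (ENSMUSG00000015468, chromosome 17, 34564268 to 34588503, plus strand), a receptor best known from endothelial cells, had only 77.7, 65.3 and 113 normalized counts in Aif1-/- BMMs, against 76.4, 72.1 and 59.1 in WT BMMs. Its groups overlapped, and its interval was the widest of the receptors (log2 fold change 0.30, SE 0.25, interval -0.25 to 0.85). The 8 endothelial markers summed to 29.3 to 32.1 CPM in Aif1-/- BMMs and 38.7 to 45.9 in WT BMMs, mostly from Kdr, with 1 of the 2 that could be compared lower and Emcn at 0, and their part in the Notch4 values was not tested.

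Relative to each other the receptors kept their order in every library. Notch2 supplied 82.3% ± 0.855 of the summed receptor level in Aif1-/- BMMs and 82.4% ± 0.206 in WT BMMs, Notch1 supplied 16.2% ± 0.624 and 16.3% ± 0.201, and Notch4 supplied 1.54% ± 0.453 and 1.31% ± 0.282 (SD, n = 3 each). The summed receptor level was 29.4 ± 0.462 in Aif1-/- BMMs and 28.1 ± 1.62 in WT BMMs. Notch3, the remaining mouse receptor, had 0 counts in all 6 libraries.

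Notch4 shares chromosome 17 with the targeted gene, with a gap of 582 kb between Notch4 and Aif1. Its neighbors were Btnl6, with a single read in 1 library, and Gpsm3, a regulator of G-protein signaling that starts 1302 bases away. Gpsm3 had 790.5, 749.8 and 778 normalized counts in Aif1-/- BMMs, against 535, 507 and 701 in WT BMMs, a log2 fold change of 0.41 (SE 0.12) with an adjusted p of 0.0422.

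Jag1 (ENSMUSG00000027276, chromosome 2, 137081456 to 137116644, minus strand), which encodes the ligand Jagged1, had 587, 491 and 579 normalized counts in Aif1-/- BMMs, against 431, 424 and 393 in WT BMMs. All Aif1-/- libraries lay above all WT libraries, with the smallest margin for Aif1-/- library 2. The log2 fold change was 0.41 (SE 0.10, interval 0.18 to 0.64), or 1.33-fold, and the threshold was missed without Aif1-/- library 1 or 3. Jag2, the other Jagged ligand, had the larger level per kilobase, and Jag1 supplied 36.6% ± 2.06 of the pair in Aif1-/- BMMs and 34.4% ± 5.46 in WT BMMs (SD, n = 3 each). Per library these shares were 38.5%, 34.4% and 37.0% in Aif1-/- BMMs, against 37.8%, 37.4% and 28.1% in WT BMMs, with WT library 3 the lowest.

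Among the nuclear factors, Rbpj (ENSMUSG00000039191, chromosome 5, 53466152 to 53657362, plus strand), the DNA-binding core of the complex, was the most abundant of the 10 genes per kilobase. It had 9393, 9512 and 9342 normalized counts in Aif1-/- BMMs, against 10369, 10062 and 9999 in WT BMMs. Every Aif1-/- library was lower, yet the difference was small and its interval spanned 0 (log2 fold change -0.11, SE 0.06, interval -0.24 to 0.02). Maml1 (ENSMUSG00000050567, chromosome 11, 50255634 to 50292311, minus strand), a Mastermind-like coactivator, had 1201, 1271 and 1207 normalized counts in Aif1-/- BMMs, against 1110.0, 1116 and 1298 in WT BMMs. These overlapped (log2 fold change 0.06, SE 0.08, interval -0.12 to 0.25, and 0.14 without WT library 3). Its share of the Mastermind-like transcript per kilobase was nonetheless 69.0% ± 1.12 in Aif1-/- BMMs and 78.2% ± 2.45 in WT BMMs, since its paralogs Maml2 and Maml3 were higher, as described with the nuclear complex below.

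Hes1 (ENSMUSG00000022528, chromosome 16, 30064384 to 30067796, plus strand), a transcriptional repressor and the classical Notch target, had 121, 96 and 70 reads in Aif1-/- BMMs, against 7, 2 and 0 in WT BMMs. As normalized counts these were 107, 128 and 92.2 in Aif1-/- BMMs, against 7.04, 1.70 and 0 in WT BMMs. No WT library came near the lowest Aif1-/- library, although the WT value rests on 9 reads in all. The log2 fold change was 5.27 (SE 0.55, interval 4.03 to 6.5), 38.5-fold on the linear scale and rank 28 from the top. It was 6.81 without WT library 1 and 4.67 without WT library 3, so the size of the difference hangs on a few WT reads while its direction does not. Mfng and Hes1 stayed higher in Aif1-/- BMMs in each alternative fit that was run. The set was chosen on this contrast, so this is a description and no separate support.

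**Figure D3:**
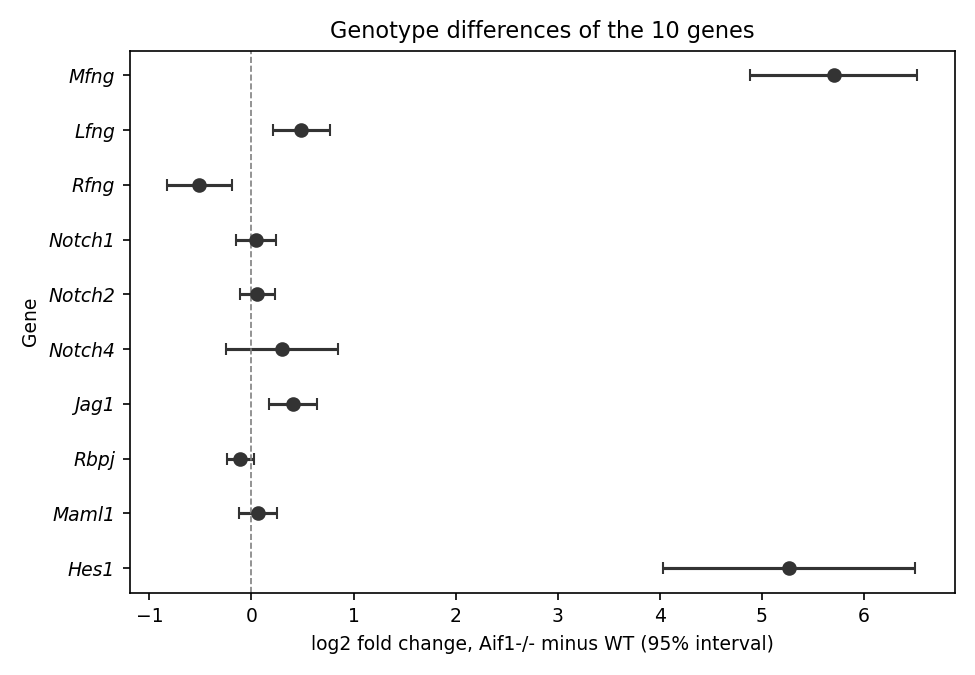
Log2 fold change (Aif1-/- minus WT) of the 10 genes, with points for the estimates and bars for 95% intervals. Mfng at 5.70 and Hes1 at 5.27 stand far to the right, Lfng (0.49) and Jag1 (0.41) lie above 0, Rfng (-0.51) lies below it, and the intervals of Notch1, Notch2, Notch4, Rbpj and Maml1 span 0.

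Ordered by mean level on this scale per kilobase, Aif1-/- BMMs ran from Rbpj (31.5) through Lfng (29.7), Notch2 (24.2), Maml1 (9.45), Rfng (6.29), Notch1 (4.76), Jag1 (4.04), Mfng (2.88) and Hes1 (2.28) to Notch4 (0.452). Only the neighbors Mfng and Hes1 overlapped over the 3 libraries. In WT BMMs the order was Rbpj (33.8), Notch2 (23.1), Lfng (20.9), Maml1 (9.0), Rfng (8.85), Notch1 (4.58), Jag1 (3.04), Notch4 (0.366), Hes1 (0.0615) and Mfng (0.0510), with overlap between Notch2 and Lfng, between Maml1 and Rfng and between Hes1 and Mfng. In this level Mfng stood at the 37.6 percentile of all genes compared in Aif1-/- BMMs and at the 0.623 percentile in WT BMMs, and Hes1 at 32.8 and 0.744. Genes low in both genotypes were not compared, and Mfng and Hes1 passed the low-count filter through their Aif1-/- counts. Their place near the bottom in WT BMMs thus follows from the filter and is no separate result. When the longest transcript was used as the length, Notch1 (7.14) moved above Rfng (6.34) and Mfng (4.39) above Jag1 (4.20) in Aif1-/- BMMs, and both pairs then overlapped.

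Reads of several of these genes could be shared with overlapping genes, since the source does not say how strand was handled beyond default counting. Exons of Notch1 overlap those of 0610009E02Rik (2 to 12 counts) and Gm13568 (0 to 3 counts) on the other strand, exons of Maml1 overlap Gm26542 (23 to 82 counts) over 135 bases, and exons of Notch2 overlap Gm42820 (53 to 118 counts) on its own strand over 541 bases. Of the wider pathway genes whose values are given below, Dll1, Furin, Aph1c, Dtx3l, Tle1 and Gata3 share exon bases with a gene on the other strand, and Neurl1a, Maml2 and Gata3 with a gene on their own. No annotated gene overlaps Mfng, Lfng, Rfng, Jag1 or Hes1. Of the genes flanking Mfng, Card10, 1662 bases away, had 0 counts in all 6 libraries and Elfn2, 37110 bases away on the other side, had 1 count in 1 library.

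Because RBPJ binds the core letters GTGGGAA, the windows from 250 bases before to 50 bases after each annotated start (RefSeq, GRCm38.p6) were searched for GTGGGAA or its reverse complement TTCCCAC. Windows were available for 8 of the 10 genes, not for Mfng or Hes1. Of their 9 windows, 1 held the core, that of Lfng, compared with 8 of 85 windows of the other pathway genes (9.41%) and 2097 of all 32851 windows (6.38%). The Lfng window, chr5:140607091-140607390 on the plus strand, is printed 5′ to 3′ because it is the only one of the member windows with a match, which is shown in capitals and starts 109 bases before the annotated start. A match of this kind is a description of letters, not of binding.
Lfng: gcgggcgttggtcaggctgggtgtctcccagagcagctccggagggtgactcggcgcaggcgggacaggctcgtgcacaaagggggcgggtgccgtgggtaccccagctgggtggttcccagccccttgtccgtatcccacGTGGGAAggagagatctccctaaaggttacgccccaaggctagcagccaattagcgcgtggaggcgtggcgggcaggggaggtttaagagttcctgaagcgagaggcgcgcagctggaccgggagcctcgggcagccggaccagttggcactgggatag

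The wider pathway was followed in 86 further genes, grouped by step, of which 68 were abundant enough to compare. Of these 13 were higher and 12 lower in Aif1-/- BMMs at an adjusted p of 0.05 (edgeR quasi-likelihood test, Benjamini-Hochberg over all genes), 36.8% of the 68, against 18.6% of all genes, with a median log2 fold change of -0.04. The genes called were thus split between directions, and they lay in every step of the pathway. The lists were drawn up with earlier results of these data known. Nothing is therefore read from this share or from the shares of single steps below. With 1 library left out at a time, 8 to 19 of the 68 were higher and 9 to 14 were lower, the lowest count of higher genes, 8, being that without any 1 of the Aif1-/- libraries. A further 17 genes had under 10 counts in every library and are listed as not measured: Notch3, Dll3, Dll4, Dlk1, Dlk2, Gxylt2, Nedd4, Rbpjl, Hes2, Hes3, Hes5, Hes7, Hey2, Heyl, Nrarp, Ptcra and Il2ra.

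**Figure D4:**
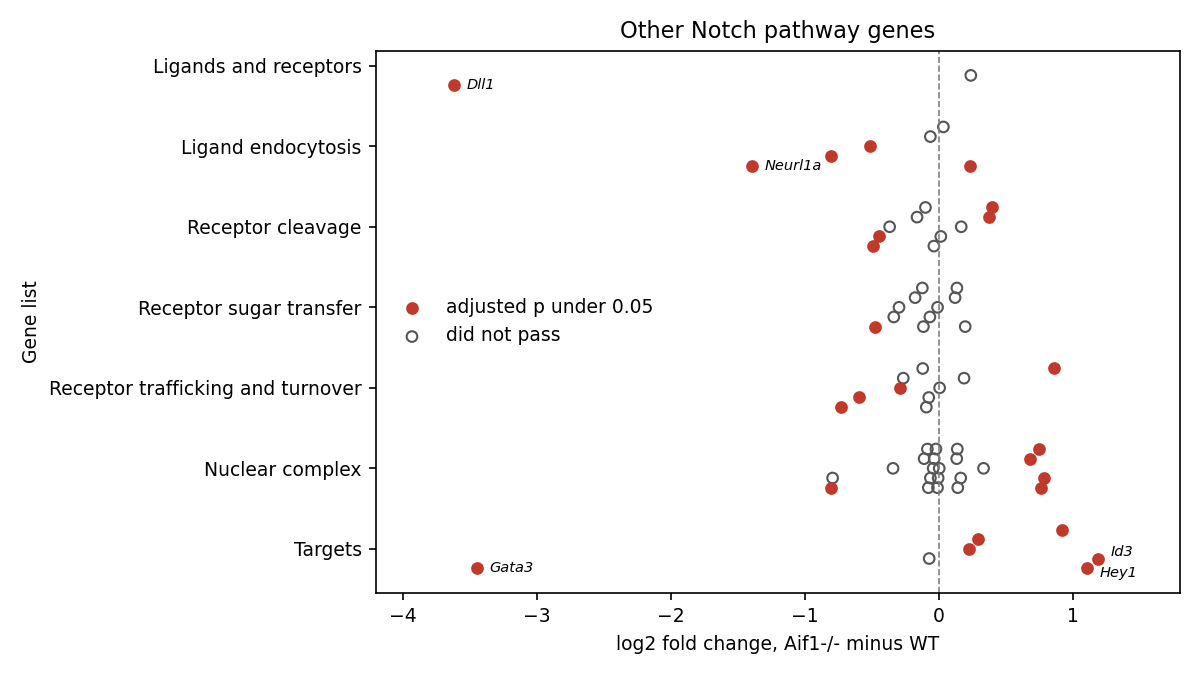
Log2 fold change (Aif1-/- minus WT) of the 68 other Notch pathway genes that could be compared, in rows by step, filled red where the adjusted p was under 0.05 and open where it was not. Most points lie within 1 log2 unit of 0, with Dll1 (-3.62), Gata3 (-3.45) and Neurl1a (-1.40) to the left and Id3 (1.19) and Hey1 (1.10) to the right.

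Of the other ligands and receptors, only Dll1 and Jag2 were abundant enough to compare. Dll1, a Delta-like ligand, had 2, 2 and 0 reads in Aif1-/- BMMs, against 20, 21 and 26 in WT BMMs (log2 fold change -3.62, SE 0.62, adjusted p = 0.0022). It was thus a low transcript in WT BMMs and barely detected in Aif1-/- BMMs, opposite in direction to Jag1. Dll1 passed the low-count filter through its WT counts. It was absent from the alternative fit that required 50 counts in 3 libraries. Jag2 averaged 1142 ± 33.9 normalized counts in Aif1-/- BMMs and 966 ± 203 in WT BMMs and did not pass (log2 fold change 0.24, adjusted p = 0.262). Its WT libraries had 849, 849 and 1201, so that WT library 3 alone lay above the Aif1-/- libraries (1123, 1121 and 1181).

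Ligands must be pulled into the signal-sending cell by ubiquitin ligases of the Neuralized and Mind bomb families. Of 6 such genes, 3 fell and 1 rose, so that 66.7% passed, against 18.6% of all genes. Neurl1a averaged 54.0 ± 10.9 normalized counts in Aif1-/- BMMs and 141 ± 31.3 in WT BMMs (log2 fold change -1.40, adjusted p = 0.0021), and Neurl1b averaged 1839.8 ± 95.5 and 2623 ± 296 (-0.51, adjusted p = 0.0024). Neurl3, whose best-described roles lie outside Notch signaling, averaged 212 ± 7.72 and 371 ± 84 (-0.81, adjusted p = 0.0056). Without WT library 3 the log2 fold changes of Neurl1a, Neurl1b and Neurl3 were smaller, at -1.20, -0.41 and -0.60. So all 3 Neuralized genes that passed were lower, whereas Mib1 was higher at 6817 ± 178 normalized counts in Aif1-/- BMMs and 5785 ± 165 in WT BMMs (0.24, adjusted p = 0.0213). The call of Mib1 was lost without WT library 1 or any Aif1-/- library.

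Receptor maturation and cleavage involved 10 genes, with 2 higher, 2 lower and 6 that did not pass. That is 40.0%, against 18.6% of all genes passing. Adam10, the protease of the ligand-dependent cut, had 9571, 9489 and 9376 normalized counts in Aif1-/- BMMs, against 7418, 7266 and 7222 in WT BMMs. The libraries of each genotype were tightly grouped and well apart (log2 fold change 0.38, SE 0.06, adjusted p = 0.0011). Furin, which cuts the receptor precursor in the Golgi, was also higher (0.40, adjusted p = 0.0441), but WT library 3 lay closest to the Aif1-/- libraries and leaving out any library except that one lost the call. Psen2, a catalytic subunit of γ-secretase, averaged 613 ± 17.1 in Aif1-/- BMMs and 837 ± 67.0 in WT BMMs (-0.45, adjusted p = 0.0053). Aph1c, another γ-secretase subunit, averaged 425 ± 14 and 597 ± 76.5 (-0.49, adjusted p = 0.0109), a call lost without Aif1-/- library 1 or 2. Its log2 fold change was -0.38 without WT library 3.

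The remaining sugar-transfer genes build the glycans that Fringe enzymes extend or work beside them. Of 11 compared, 1 was lower and 10 did not pass, so that 9.09% passed, against 18.6% of all genes. Poglut1, the O-glucosyltransferase of the EGF-like repeats, averaged 545.5 ± 26.6 normalized counts in Aif1-/- BMMs and 759 ± 75.4 in WT BMMs (log2 fold change -0.48, adjusted p = 0.0070), and lost its call without Aif1-/- library 1. Pofut1, which adds the O-fucose that Fringe enzymes lengthen, averaged 1265 ± 95.3 in Aif1-/- BMMs and 1427 ± 134 in WT BMMs and did not pass (-0.18, interval -0.38 to 0.03, adjusted p = 0.239).

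Receptor trafficking and turnover comprised 12 genes, of which 10 could be compared, with 1 higher and 3 lower. That is 40.0% of those compared, against 18.6% of all genes. Dtx4, a Deltex-family ubiquitin ligase, had 5272, 4950.3 and 5268 normalized counts in Aif1-/- BMMs, against 2895, 2668 and 2965 in WT BMMs. The groups were far apart (log2 fold change 0.86, SE 0.07, adjusted p = 1.02e-05), and the other Deltex genes that passed went the opposite way. Dtx3l averaged 3768 ± 81.5 in Aif1-/- BMMs and 5705 ± 299 in WT BMMs (-0.60, adjusted p = 0.00011), although its exons share 458 bases with Parp9 on the other strand, and Dtx3 averaged 338 ± 23.2 and 559 ± 60.6 (-0.73, adjusted p = 0.0012). Fbxw7, the ubiquitin ligase subunit that marks the Notch intracellular domain for degradation, averaged 1311 ± 50 and 1598 ± 97.5 (-0.29, adjusted p = 0.0215), a call lost without WT library 1 or any Aif1-/- library.

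In the nuclear complex 22 of 23 genes could be compared, with 4 higher, 1 lower and 17 that did not pass. The share passing was 22.7%, against 18.6% of all genes. Maml2 averaged 445.5 ± 21.3 normalized counts in Aif1-/- BMMs and 265 ± 23.6 in WT BMMs (log2 fold change 0.75, adjusted p = 0.00088), and Maml3 averaged 339 ± 9.76 and 197 ± 12.7 (0.79, adjusted p = 0.00079). Maml1 remained the main Mastermind-like transcript in both genotypes. Tle1, a Groucho-family corepressor and partner of Hes proteins, was also higher, at 1168 ± 15.1 normalized counts in Aif1-/- BMMs and 686 ± 36.4 in WT BMMs (0.77, adjusted p = 5.41e-05). Mamld1, named after its value was seen, was lower at -0.80 (adjusted p = 0.0092).

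Of 16 further targets, 7 could be compared, with 5 higher, 1 lower and Hes6 (260 ± 12.9 in Aif1-/- BMMs and 273 ± 82.5 in WT BMMs) not passing. The share passing was 85.7%, against 18.6% of all genes, in a list drawn up with earlier results known. Id3, an inhibitor of basic helix-loop-helix factors, had 2107, 2235 and 2155.5 normalized counts in Aif1-/- BMMs, against 805, 998 and 1044 in WT BMMs (log2 fold change 1.19, adjusted p = 1.26e-05). Myc, a growth regulator, averaged 1815 ± 66.1 and 959 ± 89.0 (0.92, adjusted p = 2.69e-05). Both are also controlled by many inputs other than Notch. Hey1, which like Hes1 is a repressor switched on by Notch, had 69, 57 and 47 reads in Aif1-/- BMMs, against 30, 27 and 46 in WT BMMs (1.10, SE 0.27, adjusted p = 0.0169), and lost its call without WT library 1 or any Aif1-/- library. Gata3, a T-cell regulator, had 1, 1 and 5 reads in Aif1-/- BMMs, against 34, 27 and 42 in WT BMMs (-3.45, adjusted p = 0.0023). Like Dll1, Gata3 passed the low-count filter through its WT counts and was absent from the fit that required 50 counts in 3 libraries. T-cell markers summed to 2.20 to 2.49 CPM in Aif1-/- BMMs and 2.24 to 2.82 in WT BMMs, mostly from Lck, with Cd3e and Cd3g at 0. Lck had 54, 35 and 39 reads in Aif1-/- BMMs, against 46, 62 and 59 in WT BMMs, and did not pass. The part of these markers in the Gata3 values was not tested.

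Genes most like Mfng over the 6 libraries were sought by the root-mean-square difference of log2 CPM after centering each gene on its mean. The closest was Gm10863 (0.206 log2 units), with 138, 88 and 91 reads in Aif1-/- BMMs, against 0, 0 and 3 in WT BMMs. It lies on the same chromosome, 393 kb from Mfng. Itgal, the αL integrin subunit, followed at 0.397 with 4517, 3126 and 3041 reads in Aif1-/- BMMs, against 114, 145 and 153 in WT BMMs. Xlr3b (0.398) had 92, 62 and 47 reads, against 0 in each WT library, at least 85.1-fold higher when the WT group is set to a floor of 3 counts in all. Cx3cr1, the fractalkine receptor, came next (0.420) with 4250, 2516 and 2739 reads in Aif1-/- BMMs, against 107, 138 and 149 in WT BMMs, and Mtus2 (0.427) had 155, 104 and 105, against 0, 0 and 10. Hes1 ranked 49 at 0.998. Among the WT libraries, library 3 was the highest for Mfng and at 0 for Hes1. These WT values rest on 12 reads for Mfng and 9 for Hes1, too few to tell the WT profiles apart.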

How the data were processed

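Per the labels, total RNA was depleted of rRNA, made into libraries with a stranded kit and sequenced single-end. Trim Galore 0.5 removed adapters, and TopHat2 2.0.13 placed each read at no more than 1 location of GRCm38. The authors deposited whole-number counts per gene from HTSeq 0.6.1p1 (default settings, Ensembl release 84). The 5 summary rows of each library were left out of library sizes.

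The 10 genes and all gene lists were chosen with earlier results of these data known. Counts were compared between 3 Aif1-/- and 3 WT libraries with edgeR 4.0.16 in R 4.3.3 (TMM normalization, default low-count filter, quasi-likelihood test, Benjamini-Hochberg adjustment over 17406 genes, threshold 0.05), on genotype alone. The procedure was tested on simulated data. Each SE was the absolute log2 fold change over the square root of the F statistic of the test. The fit behind it shares information on spread across genes, so an SE is not the spread of that gene alone. With 3 libraries a group, depth bounds precision most for genes at a few reads, and errors include no uncertainty beyond these libraries. Gene lengths came from GENCODE M21, which matched 47310 of 47729 genes. Named genes were the 10, up to 4 of each pathway list with the smallest adjusted p, unmeasured genes, neighbors and overlapping genes, and the 5 genes closest to Mfng. Pofut1, Jag2, Hes6 and Mamld1 were added outside this rule. Some genes that the rule or the marker lists would name are not reported here. Alternatives were DESeq2 1.42.0, other size factors, other filters, a replicate block and each library left out.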

Additional observations from a re-analysis of the deposited data

How the results depend on the processing

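Of 239 values of the 22 named genes of the wider pathway under the alternatives, 218 kept their call, 21 lost it and 0 reversed. Leaving out single libraries gave 2040 to 4889 called genes in all, 874 to 2404 higher and 1166 to 2485 lower, with 4889 without WT library 3 and 2040, 2113 and 2140 without Aif1-/- library 1, 2 and 3. Among the 10 genes, 2 to 6 passed, and in the wider pathway 8 to 19 were higher and 9 to 14 lower. DESeq2, other size factors and either other filter left 5 of the 10 passing. The Mfng share of the Fringe level in Aif1-/- BMMs was 10.2% with the longest transcript in place of 7.43%, and 6.98% to 8.16% without a library, with 0.104% to 0.192% in WT BMMs.

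Over all genes, libraries with the same replicate number did not deviate together (correlations 0.06, -0.08 and -0.09). A pairing by number that affects only some genes was not tested. With a replicate block 2872 genes were called in place of 3231, 5 of the 10 genes still passed, and Mib1 was the named gene that lost its call. Depth limits Mfng and Hes1 in WT BMMs, which rest on 12 and 9 reads, and no fold change there is more precise than those reads allow.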

Other observations

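The window of 500 kb on each side of Mfng on chromosome 15 was examined after the values of Mfng and Gm10863 had been seen. It held 24 further genes abundant enough to compare. Of these 5 were higher in Aif1-/- BMMs, 0 were lower and the others did not pass (edgeR quasi-likelihood test, Benjamini-Hochberg over all genes). So 20.8% passed, Gm10863 included, against 18.6% of all genes, of which 8.04% were higher and 10.5% lower. Because Gm10863 was known to be high before the window was drawn, nothing is read from this share or its direction. The median log2 fold change of the 24 was 0.09. Gm10863, with 317 reads in Aif1-/- BMMs and 3 in WT BMMs, had a log2 fold change of 6.88 (SE 0.52), against 5.70 for Mfng. It was the only one of these genes with a difference as large as that of Mfng, and the size rests on those few WT reads. The other higher genes were Cyth4, an ARF exchange factor (log2 fold change 0.53, adjusted p = 0.00092), Pick1 (0.54, adjusted p = 0.0106), Micall1 (0.34, adjusted p = 0.0113) and H1f0, a linker histone (0.32, adjusted p = 0.0479). The genes on either side of Mfng, Card10 and Elfn2, were at 0 or 1 count in every library.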
